A study of Homo sapiens with 6 samples.

Results

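The 77 genes described here encode the proteins of the mitochondrial ribosome that carry an MRPL or MRPS symbol. They were taken by symbol from 26255 listed genes and comprise 48 MRPL genes, named for the large subunit, and 29 MRPS genes, named for the small subunit. Expression was measured in HT29 cells, a long-established human colorectal adenocarcinoma line, by sequencing of messenger RNA. The cells received YM155, a small molecule that is known to lower expression of survivin (BIRC5), or the solvent DMSO for 24 h, with 3 libraries in each group. All 6 libraries come from the same line, no dose is stated in the labels, and the sample titles spell the compound YM115 where the treatment label has YM155. The labels do not say if the 3 libraries of a group are separate cultures. The p-values therefore measure only the spread between these libraries, and that spread may be technical.

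Mitochondrial ribosomes sit in the mitochondrial matrix and translate the messengers of the mitochondrial genome, which encode core subunits of the respiratory chain complexes and of ATP synthase. Their ribosomal RNAs are made inside the organelle, whereas every protein of both subunits is encoded in the nucleus, translated in the cytosol and imported. Part of these proteins have homologues in bacterial ribosomes and the others are specific to mitochondria. The symbols predate the structures of the particle, and a few MRPS proteins were later located in the large subunit.

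Values were FPKM, that is, fragments per kilobase of a transcript after scaling to the library's size, as deposited by the authors. Genes were tested with limma on log2(FPKM + 1), and log2 fold changes are on that scale, YM155 minus DMSO. A gene is called higher or lower at a Benjamini-Hochberg adjusted p under 0.05 over all 12035 genes tested. Read totals are not in the files. The relative worth of 1 read was estimated as the commonest ratio of low FPKM values of the same gene to those in DMSO replicate 1. This ratio was 1.52 to 1.78 in the YM155 libraries and 0.997 to 1.11 in the other DMSO libraries. By this estimate low levels were measured less finely with YM155. BIRC5 averaged 6.36 ± 0.671 FPKM with YM155 and 21.8 ± 0.940 FPKM with DMSO (SD, n = 3 each). Its log2 fold change was -1.63, with a limma adjusted p of 6.8e-08. All 8 colorectal epithelium markers passed the filter on low values and summed to 7937 to 8622 FPKM with YM155, against 4423 to 4629 FPKM with DMSO. The sum is led by KRT8 and KRT18, and 6 of the 8 were higher, while VIL1 (log2 -0.77) and CDX2 (log2 -1.19, 0.839 FPKM with YM155 and 3.20 FPKM with DMSO) were lower. CDX2 met the filter only through its DMSO libraries, so a lower call was favoured in advance. None of 6 fibroblast and none of 3 endothelium markers passed it, with no value above 0.328 and 0.184 FPKM. Of 5 leukocyte markers CD68 alone passed, at 82.9 FPKM with YM155 and 4.85 FPKM with DMSO, while PTPRC and CD3E were near 0. The part of these marker changes in the results was not tested.

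All 77 mitochondrial ribosomal protein genes passed the filter of at least 1 FPKM in at least 3 libraries. With YM155, 47 of them (61.0%) were lower, 14 (18.2%) were higher and 16 did not pass the test. Among all tested genes 41.0% were lower, 43.6% were higher and 84.7% were called in either direction. The libraries of both groups did not overlap for 62 of the 77 genes (80.5%), against 85.9% of all tested genes. Lower calls were thus a larger and higher calls a smaller share than in the background, while the 61 calls in either direction were no larger a share than there. The median log2 fold change over the 77 genes was -0.26, with quartiles at -0.69 and 0.04, against a median of 0.02 with quartiles at -0.58 and 0.67 over all tested genes.

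Most changes were small. A log2 fold change of at least 1 was reached by 1 of the 77 genes, MRPS30, compared with 15.9% of all tested genes, and one of at most -1 by 4 genes, MRPL40, MRPL1, MRPL24 and MRPS28, compared with 11.8%. All 47 lower calls were kept under every scaling tried, but the counts depended on it. Upper-quartile, common-sum, quantile and loess scaling moved the median log2 fold change of the 77 genes down, to between -0.68 and -0.51. They could thus hardly lose a lower call, and they bear mainly on the higher calls. Median-of-ratios factors were 0.989 to 1.02, so those values stayed close to the deposited ones. Upper-quartile scaling gave 7 higher and 60 lower (77.9%), against a background of 34.8% higher and 50.8% lower. Common-sum scaling gave 7 higher and 64 lower (83.1%), against 31.8% higher and 53.4% lower in the background. Quantile normalization gave 6 higher and 65 lower (84.4%), with a background of 38.4% and 46.0%, and cyclic loess 6 higher and 63 lower (81.8%), with a background of 40.8% and 42.2%. Median-of-ratios scaling gave 15 higher and 47 lower. Higher under each of these scalings were MRPS30, MRPS10, MRPS6, MRPL54, MRPS2 and MRPS5. In bulk samples fewer cells of a type and less RNA per cell cannot be told apart.

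**Figure D1:**
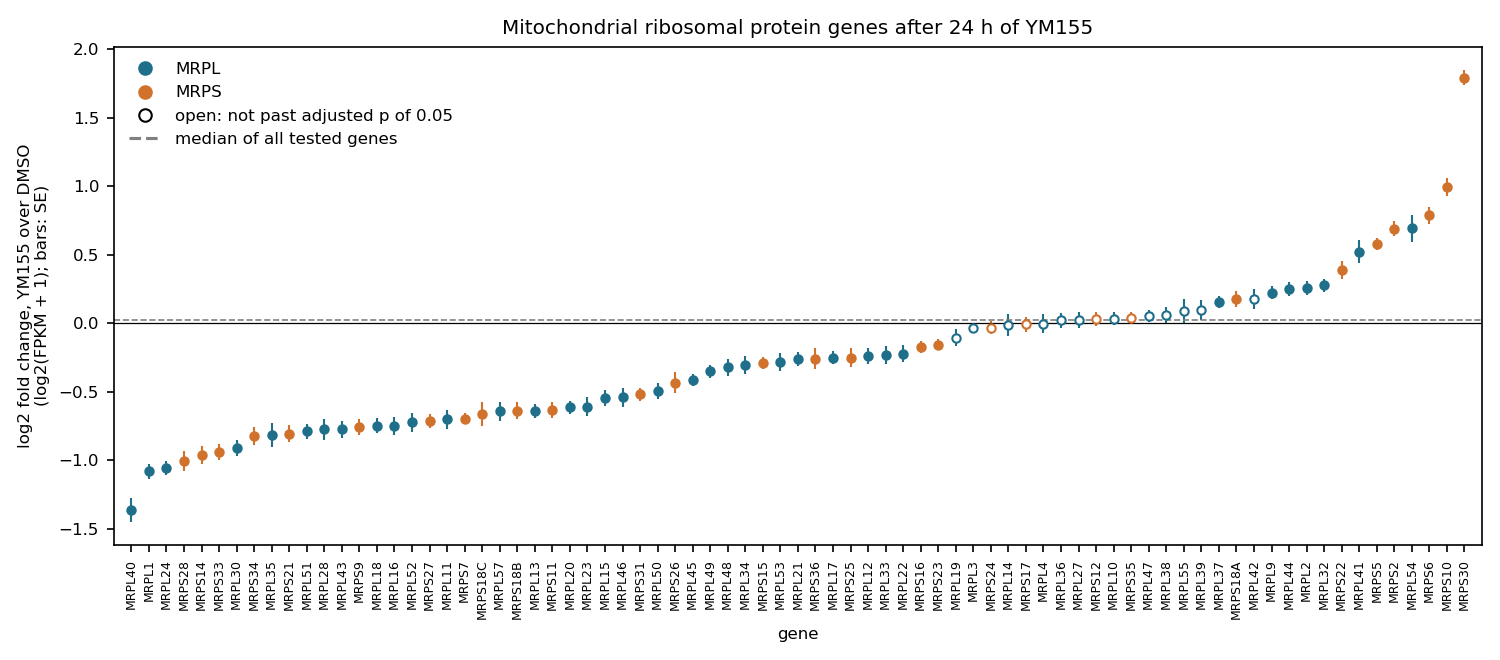
Log2 fold change (YM155 over DMSO, log2(FPKM + 1)) of the 77 genes in rank order, with bars of 1 SE, MRPL and MRPS genes in separate colours and open circles for the 16 genes that did not pass. From MRPL40 at -1.36 the genes climb gradually to MRPL54 and MRPS6 at 0.69 and 0.79, and MRPS30 at 1.79 stands apart at the right end.

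MRPS30 had the largest rise of the 77 genes. It was first described as a programmed cell death protein (PDCD9) and, despite its symbol, lies in the large subunit in structures of the ribosome. It had 102, 105 and 106 FPKM in the YM155 libraries, against 30.6, 26.9 and 30.8 FPKM in the DMSO libraries. Every YM155 library lay above every DMSO library, and the spread within each group was small beside the gap. The fold was 3.55, and the log2 fold change 1.79 ± 0.06 (SE, limma adjusted p of 8.9e-09). In order of FPKM the gene stood at rank 3 of the 77 with YM155 and at rank 57 with DMSO. A divergent non-coding transcript, MRPS30-DT, starts 148 bases away in GENCODE 29, and BRCAT54, one of its names in the files, was at 0.303 FPKM with YM155 and 0.612 FPKM with DMSO, below the filter. The 250 bases before the MRPS30 start (GRCh38.p14, chr5:44808697-44808946, plus strand, from RefSeq) are shown because they precede the gene with the largest rise. They hold none of the promoter motifs searched below, and 50.4% of them are G or C.
MRPS30: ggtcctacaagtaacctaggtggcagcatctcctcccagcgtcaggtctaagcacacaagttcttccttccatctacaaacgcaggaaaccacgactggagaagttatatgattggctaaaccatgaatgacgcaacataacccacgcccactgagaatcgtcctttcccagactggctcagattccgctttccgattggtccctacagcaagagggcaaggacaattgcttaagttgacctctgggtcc

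MRPS10, a small subunit protein of the head with a bacterial homologue, had the second largest rise of the 77 genes. It stood at 26.5, 30.1 and 31.0 FPKM with YM155 and at 14.4, 13.6 and 14.3 FPKM with DMSO. No library of either group came near the other group, and the fold was 2.07 (log2 fold change 1.00 ± 0.07 SE, limma adjusted p of 7.0e-07). MRPS6, homologous to a bacterial protein of the platform, had 79.1, 93.9 and 88.9 FPKM with YM155 and 50.02, 48.7 and 51.3 FPKM with DMSO, a 1.75-fold rise (log2 0.79, limma adjusted p of 2.6e-06). MRPS2 had 74.0, 66.0 and 69.3 FPKM with YM155, against 44.7, 42.7 and 41.1 FPKM with DMSO, a 1.63-fold rise (log2 0.69, limma adjusted p of 2.4e-06). In both genes the lowest YM155 library exceeded the highest DMSO library. MRPS5, whose bacterial homologue lies near the mRNA entry site, was nearly constant with YM155 at 70.7, 70.1 and 70.2 FPKM, compared with 45.3, 49.2 and 46.0 FPKM with DMSO. Its fold was 1.5 and its log2 fold change 0.58 (limma adjusted p of 2.0e-06). These groups also did not overlap.

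The remaining rises of the first 8 were in genes for mitochondria-specific proteins. MRPL54, a large subunit protein, had 72.2, 66.8 and 58.3 FPKM with YM155 and 35.2, 44.1 and 41.7 FPKM with DMSO. The groups stayed apart, but MRPL54 had the largest SE of these rises, 0.10 around a log2 fold change of 0.69 (1.63-fold, limma adjusted p of 1.1e-04). MRPL41, a large subunit protein, was at 73.1, 74.0 and 63.3 FPKM with YM155 and at 43.2, 51.2 and 51.1 FPKM with DMSO, a 1.45-fold rise (log2 0.52, limma adjusted p of 2.5e-04). MRPS22, a small subunit protein mutated in mitochondrial disease, was at 58.7, 52.3 and 52.0 FPKM with YM155 and at 39.1, 44.3 and 40.1 FPKM with DMSO, a 1.32-fold rise (log2 0.39, limma adjusted p of 3.7e-04). Neither pair of groups overlapped, yet MRPS22 was not called higher under upper-quartile, common-sum, quantile or loess scaling, and MRPL41 not under quantile or loess scaling. The other 6 genes called higher, MRPL32, MRPL2, MRPL44, MRPL9, MRPS18A and MRPL37, had log2 fold changes of 0.16 to 0.28, and none of them was called higher under those 4 scalings.

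**Figure D2:**
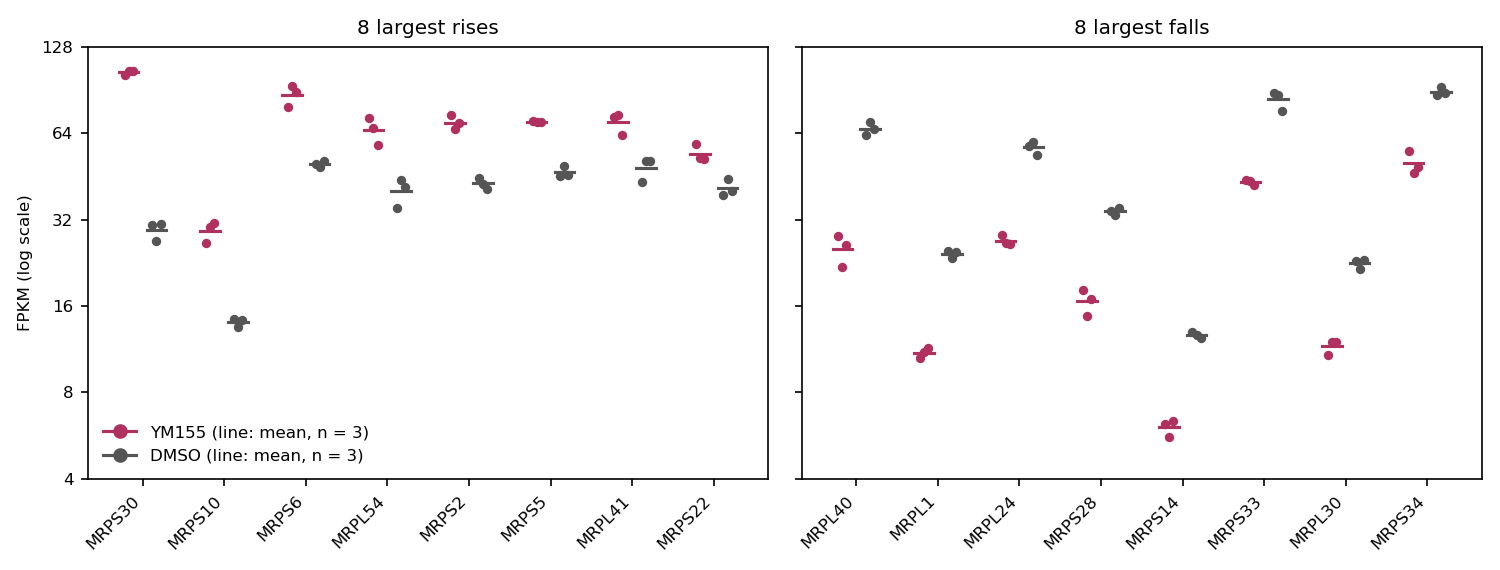
FPKM in each library, on a log scale, of the 8 genes with the largest rises (left) and the 8 with the largest falls (right), with YM155 points left of DMSO points and a line at each mean of 3 libraries. In all 16 genes the libraries of both groups do not overlap, and MRPS30 has the widest gap among the rises.

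MRPL40 had the largest fall. It is a mitochondria-specific protein of the central protuberance of the large subunit, encoded in the region deleted in DiGeorge syndrome. Its levels were 28.1, 21.9 and 26.0 FPKM in the YM155 libraries, against 63.0, 70.3 and 66.1 FPKM in the DMSO libraries. The highest YM155 library was at less than any DMSO library by a wide margin, and the mean was 2.62-fold lower with YM155 (log2 fold change -1.36 ± 0.09 SE, limma adjusted p of 5.3e-07). In order of FPKM MRPL40 stood at rank 55 with YM155 and at rank 20 with DMSO. The 250 bases before its start (GRCh38.p14, chr22:19432295-19432544, plus strand, from RefSeq) are shown as the counterpart of the MRPS30 sequence. In contrast to those they are 75.6% G or C, and capitals mark 2 matches to the SP1 motif GGGCGG and 1 match to the ETS motif CCGGAAG. The promoter windows of 68 members, described below, had a median of 60.3% G or C (43.3% to 82.0%). SP1 matches were in 61.5% of the higher and 60.0% of the lower genes with such a window. The 2 promoters are single examples, and a link to direction was not tested.
MRPL40: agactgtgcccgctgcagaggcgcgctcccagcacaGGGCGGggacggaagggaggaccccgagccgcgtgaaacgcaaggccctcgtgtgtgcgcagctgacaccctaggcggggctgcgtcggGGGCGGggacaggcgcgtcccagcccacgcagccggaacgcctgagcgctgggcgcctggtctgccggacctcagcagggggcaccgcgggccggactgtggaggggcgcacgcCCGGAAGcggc

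Large subunit proteins with bacterial homologues followed. MRPL1, homologous to the bacterial protein of the mobile L1 stalk, stood at 10.5, 11.1 and 11.4 FPKM with YM155 and at 24.8, 23.4 and 24.7 FPKM with DMSO, 2.21-fold lower with YM155 (log2 -1.08, limma adjusted p of 1.2e-07). MRPL24 had 28.2, 26.5 and 26.2 FPKM with YM155, against 57.9, 59.7 and 54.0 FPKM with DMSO, 2.12-fold lower (log2 -1.06, limma adjusted p of 1.3e-07). Levels of both genes were tight within each group and far apart between groups. MRPL30 had 10.8, 12 and 12 FPKM with YM155 and 22.9, 21.6 and 23.2 FPKM with DMSO, 1.95-fold lower (log2 -0.91, limma adjusted p of 6.6e-07), again without overlap.

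The other 4 of the 8 largest falls were in genes of the small subunit. MRPS28 had 18.2, 14.7 and 16.9 FPKM with YM155, against 34.4, 33.3 and 35.1 FPKM with DMSO, 2.06-fold lower (log2 -1.01, limma adjusted p of 1.4e-06). MRPS14, homologous to a bacterial protein of the head, had 6.22, 5.57 and 6.35 FPKM with YM155 and 13, 12.7 and 12.4 FPKM with DMSO, 2.1-fold lower (log2 -0.96, limma adjusted p of 7.6e-07). MRPS14 had the lowest mean of the 77 genes with YM155, and its groups, like those of MRPS28, did not overlap. The mitochondria-specific MRPS33 had 44.2, 43.5 and 42.2 FPKM with YM155 and 88.7, 86.9 and 76.6 FPKM with DMSO, 1.94-fold lower (log2 -0.94, limma adjusted p of 5.5e-07). MRPS34, also mitochondria-specific and mutated in Leigh syndrome, had 55.6, 46.7 and 48.8 FPKM with YM155 and 87.3, 92.7 and 88.4 FPKM with DMSO, 1.78-fold lower (log2 -0.82, limma adjusted p of 2.4e-06). In both the YM155 libraries lay below every DMSO library. The other 39 genes called lower had log2 fold changes between -0.81 and -0.15.

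Falls included the 4 most abundant genes of DMSO cells, though ranking by the DMSO level, one side of the fold change, favours falls. MRPL13 was at 115, 106 and 107 FPKM with YM155 and at 162, 177 and 175 FPKM with DMSO (log2 fold change -0.64). MRPL51 was at 101, 97.1 and 93.5 FPKM with YM155 and at 159, 179 and 167 FPKM with DMSO (log2 -0.79). MRPL45, which in structures helps to hold the ribosome at the inner membrane, was at 103, 98.1 and 107 FPKM with YM155 and at 136, 138 and 137 FPKM with DMSO (log2 -0.42). No library of these genes crossed between groups, and the limma adjusted p-values were 2.6e-06, 8.3e-07 and 1.4e-05. The most abundant MRPS genes with DMSO were MRPS15, at 85.2, 83.9 and 91.0 FPKM with YM155 and 105, 109 and 104 FPKM with DMSO (log2 -0.29, limma adjusted p of 2.6e-04), and MRPS24, which did not pass. MRPL20 averaged 76.6 ± 1.98 FPKM with YM155 and 118 ± 4.47 FPKM with DMSO (SD, n = 3 each), a log2 fold change of -0.61. With YM155 the highest level belonged to MRPL37, at 114, 109 and 109 FPKM against 102, 99.5 and 96.4 FPKM with DMSO (log2 0.16, limma adjusted p of 0.0064), which stood at rank 10 with DMSO. MRPL12, a protein of the stalk that binds translation factors and also a partner of mitochondrial RNA polymerase, was at 72.8, 64.6 and 63.1 FPKM with YM155 and at 79.2, 80.7 and 77.2 FPKM with DMSO (log2 -0.24, limma adjusted p of 0.0036). Its groups were apart, though by less than those of the genes above.

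Abundant genes were also found among the 16 that did not pass. MRPS24 had 99.3, 99.4 and 101 FPKM with YM155 and 108, 102 and 96.2 FPKM with DMSO (limma adjusted p of 0.56). MRPL3, whose bacterial homologue reaches towards the peptidyl transferase centre, had 82.5, 79.5 and 80.5 FPKM with YM155 and 82.4, 83.3 and 82.8 FPKM with DMSO (limma adjusted p of 0.40). MRPS35 had 81.5, 80.1 and 82.1 FPKM with YM155 and 78.8, 76.3 and 81.7 FPKM with DMSO (limma adjusted p of 0.37). The groups overlapped in all 3 genes. MRPS12, MRPL27, MRPL36, MRPL14, MRPL10, MRPL47, MRPS17, MRPL38, MRPL55, MRPL4, MRPL39, MRPL42 and MRPL19 made up the rest, with log2 fold changes between -0.10 and 0.18.

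The large and small subunits were set against each other in several ways. In the background of all tested genes 41.0% were lower and 43.6% higher. By symbol, 29 of 48 MRPL genes (60.4%) were lower and 7 (14.6%) higher, with a median log2 fold change of -0.27. Of 29 MRPS genes 18 (62.1%) were lower and 7 (24.1%) higher, with a median of -0.26. The medians thus differed by -0.02, MRPL minus MRPS, and this difference lay between -0.10 and 0.07 when single libraries were left out, taking a positive sign without YM155 replicate 3, DMSO replicate 1 or DMSO replicate 2. Sums of FPKM differed more. MRPL genes summed to 2211, 2087 and 2090 FPKM with YM155, against 2594, 2707 and 2604 FPKM with DMSO, a ratio of means of 0.808. MRPS genes summed to 1263, 1243 and 1257 FPKM with YM155, against 1320, 1334 and 1298 FPKM with DMSO, a ratio of 0.953. The groups did not overlap in either sum, and such sums are led by the abundant genes.

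The ratio of the MRPL to the MRPS sum within a library is not affected by linear scaling. It was 1.75, 1.68 and 1.66 with YM155 and 1.97, 2.03 and 2.007 with DMSO, without overlap. Assigning genes by where structures place the protein moves MRPS30 and MRPS18A to the large subunit and takes out MRPS36, which was later described as part of the alpha-ketoglutarate dehydrogenase complex. The ratio was then 2.15, 2.07 and 2.06 with YM155 and 2.16, 2.24 and 2.21 with DMSO, a smaller gap with YM155 replicate 1 almost level with DMSO replicate 1. With the original symbols but without MRPS30 it was 1.85 ± 0.0469 with YM155 and 2.05 ± 0.0301 with DMSO (SD, n = 3 each). The groups did not overlap here either, and the gap was smaller than with MRPS30 counted in the small subunit. Over genes, the structural assignment gave 9 higher and 29 lower of 50 large subunit genes, with a median log2 fold change of -0.26, and 5 higher and 17 lower of 26 small subunit genes, with a median of -0.36. The difference of these medians was 0.10, opposite in sign to that by symbol.

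**Figure D3:**
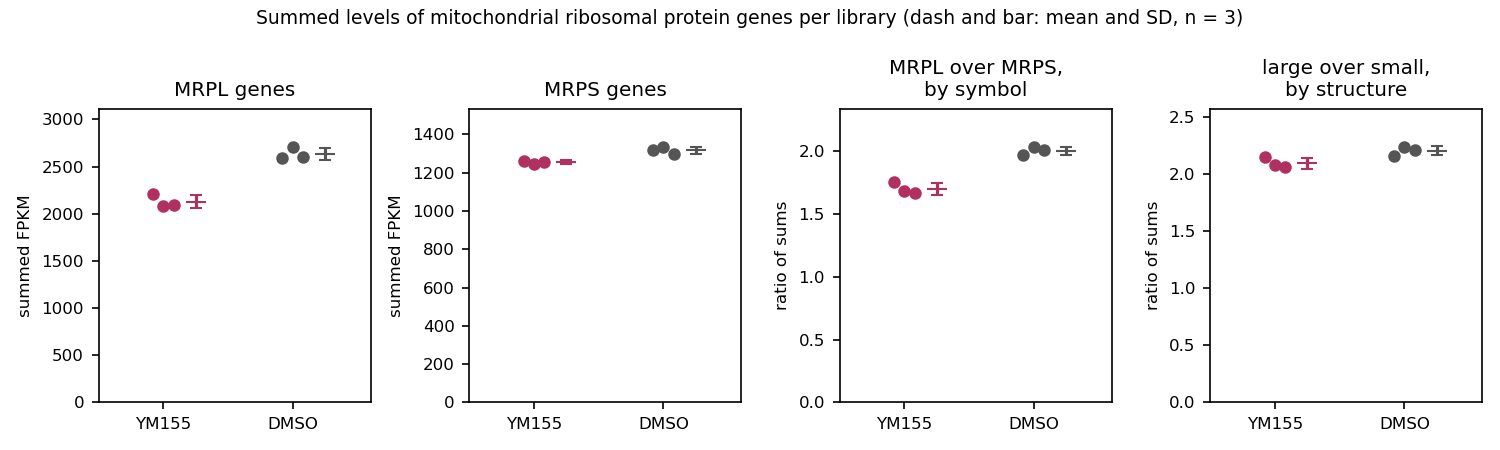
Summed FPKM of MRPL and MRPS genes and the ratio of the sums, by symbol and by position in the structure, for each library (points) with the mean and SD of 3 libraries beside them, YM155 left of DMSO. The MRPL sum is lower with YM155 (2129 ± 71.0) than with DMSO (2635 ± 62.3), the MRPS sums are nearer each other (1255 ± 10.3 and 1317 ± 18.2), and the gap in the ratio is narrower by structure than by symbol.

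MRPS18A, MRPS18B and MRPS18C are paralogues named after the same bacterial protein, and their products sit in different places. MRPS18C alone is counted here among genes with a bacterial homologue, MRPS18A and MRPS18B among the mitochondria-specific ones. MRPS18A, found in the large subunit, had 46.2, 42.9 and 43.4 FPKM with YM155 and 37.6, 42.2 and 37.5 FPKM with DMSO, a 1.13-fold rise (log2 0.17, limma adjusted p of 0.019). The gap between the lowest YM155 and the highest DMSO library was narrow, and the call was lost without YM155 replicate 1, DMSO replicate 1 or DMSO replicate 3 (adjusted p of 0.056, 0.073 and 0.070) and turned negative under upper-quartile, common-sum, quantile and loess scaling. MRPS18B, a small subunit protein, had 24.8, 22.5 and 21.4 FPKM with YM155 and 34.5, 36.9 and 37.2 FPKM with DMSO (log2 -0.64). MRPS18C, also of the small subunit, had 10.9, 14.3 and 12.8 FPKM with YM155 and 20.03, 20.3 and 21.2 FPKM with DMSO (log2 -0.66). Both were clearly apart between groups, with limma adjusted p-values of 9.7e-06 and 7.6e-05. MRPS36 had 16.3, 17.7 and 19.5 FPKM with YM155 and 19.6, 23.1 and 21.7 FPKM with DMSO (log2 -0.26, limma adjusted p of 0.013). Its groups nearly touched, and the adjusted p was 0.052 without DMSO replicate 2.

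Origin of the protein was a further division. Of 46 genes with a bacterial homologue 27 (58.7%) were lower and 7 (15.2%) higher, with a median log2 fold change of -0.25. Of 30 mitochondria-specific genes 19 (63.3%) were lower and 7 (23.3%) higher, with a median of -0.34. The background of all tested genes was 41.0% lower and 43.6% higher. In the small subunit by structure, 8 of 10 mitochondria-specific genes were lower and 1, MRPS22, was higher (median -0.48), compared with 9 lower and 4 higher of 16 with a homologue (median -0.23). In the large subunit, 11 of 20 mitochondria-specific genes were lower and 6 higher (median -0.30). Of 30 with a homologue there, 18 were lower and 3 higher (median -0.25). These counts are descriptions of small groups, and no difference between them was tested.

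Levels of the 77 genes kept much of their order. Across genes, the log2 of mean FPKM with YM155 and with DMSO correlated with r = 0.857 and rho = 0.834 (n = 77 genes). These genes share the same libraries and are not replicates. The spread of log2 levels across the genes was wider with YM155, an SD of 1.09 ± 0.0210 against 0.979 ± 0.0197 with DMSO, and these values did not overlap. The log2 fold change was hardly related to the log2 DMSO level (r = -0.105, rho = -0.0786). By level in DMSO, 18 of the 26 most abundant genes (55.9 to 171 FPKM) were lower and 1 higher, 12 of the middle 25 were lower and 9 higher, and 17 of the 26 scarcest (6.60 to 35.1 FPKM) were lower and 4 higher. Abundance also bears on the background. In the decile of 34.6 to 68.2 FPKM, which held 30 of the 77 genes, the median log2 fold change was 0.37 over all genes and -0.16 over the 30. In the decile above, with 18 of the 77, it was 0.31 over all genes and -0.24 over the 18, and in the decile below, with 11, it was 0.33 over all genes and -0.55 over the 11.

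**Figure D4:**
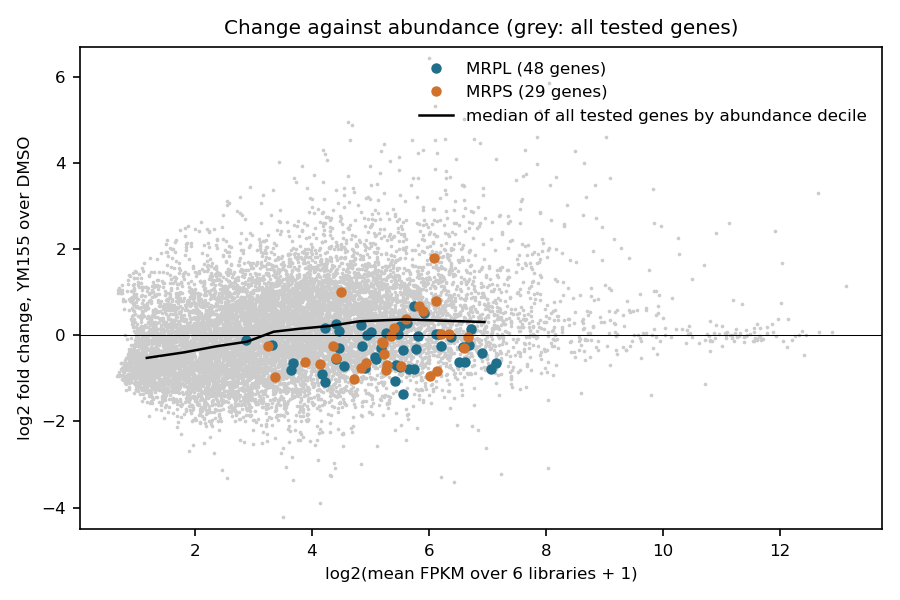
Log2 fold change (YM155 over DMSO) against log2(mean FPKM over 6 libraries + 1) for all tested genes in grey and the 48 MRPL and 29 MRPS genes in colour, with a line through the medians of the abundance deciles. Most coloured points lie under the line, which is above 0 over the range where most of the 77 genes sit, and MRPS30 is the highest of them.

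Set against all messages, the 77 genes took 0.494% ± 0.00441 of the summed FPKM with YM155 and 0.722% ± 0.00429 with DMSO (SD, n = 3 each), a ratio of 0.684. Their own sum fell less, to 3384 ± 79.0 FPKM with YM155 against 3952 ± 76.9 FPKM with DMSO, a ratio of 0.856, while the FPKM total was 1.25 times as large with YM155. The genes for the proteins of the cytosolic ribosome were taken for comparison. Their sum was 188265 ± 6851 FPKM with YM155 and 187461 ± 9754 FPKM with DMSO, and the groups overlapped. Among all tested genes 43.6% were higher and 41.0% lower. Of 80 tested cytosolic genes 14 (17.5%) were higher, 14 (17.5%) lower and 52 did not pass, with a median log2 fold change of -0.0021. These counts hold for FPKM as deposited. Under upper-quartile, common-sum, quantile and loess scaling 64, 72, 65 and 59 of the 80 were lower and 3, 2, 4 and 6 higher. The shares of all tested genes lower were then 50.8%, 53.4%, 46.0% and 42.2%. Independent of linear scaling, the mitochondrial sum was 1.80% ± 0.0259 of the cytosolic sum with YM155 and 2.11% ± 0.0682 with DMSO, without overlap between the groups.

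Another 6 proteins of the mitochondrial ribosome carry other symbols in the files, and their genes were divided. DAP3, a GTP-binding protein of the small subunit, was at 87.5 ± 1.81 FPKM with YM155 and 71.7 ± 1.49 FPKM with DMSO (log2 0.28, limma adjusted p of 1.2e-04). GADD45GIP1, of the large subunit, was at 50.5 ± 5.16 FPKM with YM155 and 43.5 ± 3.01 FPKM with DMSO (log2 0.21, limma adjusted p of 0.031). Neither was called higher under upper-quartile, common-sum, quantile or loess scaling, where DAP3 turned negative in all but the upper-quartile values and GADD45GIP1 in all 4. GADD45GIP1 also lost its call without YM155 replicate 1, DMSO replicate 1 or DMSO replicate 3 (limma adjusted p of 0.085, 0.058 and 0.11). CHCHD1 was lower at 28.3 ± 1.90 FPKM with YM155 against 50.03 ± 3.23 FPKM with DMSO (log2 -0.80), and the RNA-binding PTCD3 at 10.9 ± 0.616 FPKM with YM155 against 17.2 ± 0.326 FPKM with DMSO (log2 -0.62). Both belong to the small subunit. AURKAIP1 and ICT1, a peptidyl-tRNA hydrolase built into the large subunit, did not pass.

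With FPKM as deposited, factors that build the particle moved in both directions, as the tested genes did in general. Of 26 tested assembly genes 13 were lower and 8 higher, with a median log2 fold change of -0.18. The shares of all tested genes were 41.0% lower and 43.6% higher, with 84.7% called in either direction. Under upper-quartile, common-sum, quantile and loess scaling 18, 19, 16 and 15 of the 26 were lower and 3, 3, 5 and 5 higher. Of all tested genes 50.8%, 53.4%, 46.0% and 42.2% were then lower and 34.8%, 31.8%, 38.4% and 40.8% higher. Whether the assembly genes differ from these backgrounds was not tested. MRM1, a methyltransferase of the large ribosomal RNA, was at 2.28 ± 0.205 FPKM with YM155 and 7.05 ± 0.371 FPKM with DMSO (log2 -1.30), and TFB1M, which dimethylates the small ribosomal RNA, at 1.51 ± 0.0257 FPKM with YM155 and 4.31 ± 0.364 FPKM with DMSO (log2 -1.08). NGRN, a factor for the large ribosomal RNA, was higher at 91.8 ± 1.77 FPKM with YM155 against 61.2 ± 0.192 FPKM with DMSO (log2 0.58). The limma adjusted p-values of these genes were 3.1e-07, 1.1e-06 and 7.2e-07. Of 17 translation factors and associated proteins 11 (64.7%) were lower and 4 (23.5%) higher, with a median of -0.36. The release factor gene MTRF1 was at 4.17 ± 0.201 FPKM with YM155 and 10.2 ± 0.694 FPKM with DMSO (log2 -1.11), MTFMT, which formylates the initiator tRNA, at 2.36 ± 0.180 FPKM with YM155 and 5.47 ± 0.480 FPKM with DMSO (log2 -0.94), and the mRNA-binding SLIRP at 110.0 ± 4.07 FPKM with YM155 and 179.6 ± 10.6 FPKM with DMSO (log2 -0.70). Higher calls in this list were 4 with FPKM as deposited but 1, 0, 1 and 1 under upper-quartile, common-sum, quantile and loess scaling. Among all tested genes 34.8%, 31.8%, 38.4% and 40.8% were then higher. Transcripts of the mitochondrial genome were not analysed here.

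Genes for mitochondrial transcription and DNA maintenance were split with FPKM as deposited, with 5 of 10 lower and 4 higher, against 41.0% and 43.6% of all tested genes. Under upper-quartile, common-sum, quantile and loess scaling 6 of the 10 were lower each time and 2, 2, 1 and 3 higher. POLG, the mitochondrial DNA polymerase, was at 43.4 ± 1.33 FPKM with YM155 and 17.2 ± 0.774 FPKM with DMSO (log2 1.29), and SSBP1, the mitochondrial single-strand binding protein, at 122 ± 6.24 FPKM with YM155 and 178 ± 3.52 FPKM with DMSO (log2 -0.54). TOP1MT, the mitochondrial topoisomerase, was at 42.4 ± 1.67 FPKM with YM155 and 29.6 ± 3.25 FPKM with DMSO (log2 0.51, limma adjusted p of 1.7e-04), a call lost under quantile normalization. Messages for known regulators of nuclear genes with mitochondrial products went the other way from the ribosomal genes. All 7 that passed the filter were higher, compared with 43.6% of all tested genes, with a median log2 fold change of 0.67. The coactivator genes PPARGC1A (0.430 FPKM with YM155 and 0.344 FPKM with DMSO) and PPARGC1B (0.803 and 0.940 FPKM) were below it. GABPB1, a subunit of the ETS factor GABP, was at 40.02 ± 2.19 FPKM with YM155 and 9.26 ± 0.827 FPKM with DMSO (log2 2.00), the coactivator PPRC1 at 44.3 ± 0.812 FPKM with YM155 and 12.2 ± 0.718 FPKM with DMSO (log2 1.78), and YY1 at 49.1 ± 2.22 FPKM with YM155 and 18.2 ± 1.93 FPKM with DMSO (log2 1.39). Limma adjusted p-values were 1.6e-08, 6.2e-09 and 2.1e-07. ESRRA, NRF1, MYC and GABPA rose by 0.48 to 0.67, of which MYC was not called under quantile normalization nor GABPA under common-sum scaling. Of 13 mitochondrial chaperones and proteases 8 (61.5%) were higher and 3 (23.1%) lower. That balance turned to 5 higher and 6 lower under upper-quartile, 4 and 6 under common-sum and loess, and 3 and 7 under quantile scaling. The shares of all tested genes under these scalings are given above. HSPA9, the matrix HSP70, was at 371 ± 10.1 FPKM with YM155 and 107 ± 1.63 FPKM with DMSO (log2 1.79), and LONP1, a matrix protease, at 57.9 ± 3.98 FPKM with YM155 and 21.1 ± 1.90 FPKM with DMSO (log2 1.42). HSPE1, the co-chaperonin of HSPD1, was lower at 119 ± 5.63 FPKM with YM155 against 215 ± 6.26 FPKM with DMSO (log2 -0.85).

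**Figure D5:**
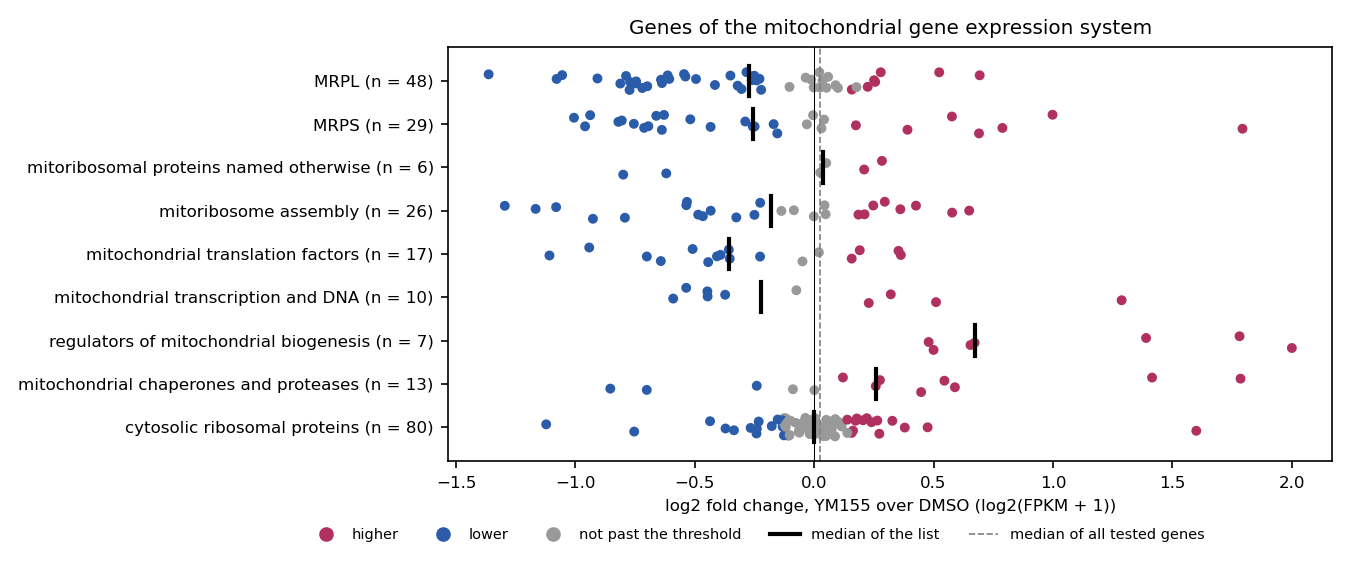
Log2 fold change (YM155 over DMSO, log2(FPKM + 1)) of each tested gene in 9 lists, coloured by call, with a thick bar at the median of each list and a dashed line at the median of all tested genes. The MRPL and MRPS genes have medians of -0.27 and -0.26, cytosolic ribosomal protein genes gather around 0 in FPKM as deposited (64 of 80 lower under upper-quartile scaling), and the 7 regulators of mitochondrial biogenesis all lie to the right.

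Several of the 77 genes start back to back with another gene. In GENCODE 29 (GRCh38), 21 have a neighbour on the opposite strand with its start at most 1000 bases away, and 12 such pairs had both genes tested. In 8 pairs both genes were called, 6 with both lower, 1 with both higher and 1 in opposite directions. Among all tested genes 84.7% were called and 41.0% were lower, and whether neighbours share a direction more often than other genes was not tested. MRPL46 and MRPS11, which start 34 bases apart and belong to different subunits, were both lower, with log2 fold changes of -0.54 and -0.63. MRPL57 and SKA3, 43 bases apart, were lower by unequal amounts, -0.64 and -1.12. MRPL54 was higher together with APBA3, at 0.69 and 0.50. MRPL21 and IGHMBP2 start 7 bases apart and moved oppositely, with MRPL21 at -0.26 and IGHMBP2 at 1.34. NDUFS6 and NDUFB5, which encode subunits of respiratory complex I, were lower (log2 -0.48 and -0.49) while their partners MRPL36 and MRPL47 did not pass. EME1 was likewise lower (log2 -1.27, 0.647 FPKM with YM155 and 2.99 FPKM with DMSO) while its partner MRPL27 did not pass. EME1 met the filter only through its DMSO libraries, so a lower call was favoured in advance. MRPL18 was lower (log2 -0.75) while TCP1 did not pass. Whether strand was used in the quantification is not given in the sources used here, so levels of overlapping genes are uncertain. An exon of 29 of the 77 genes is overlapped on the opposite strand. Of these 16 were lower and 8 higher, compared with 31 lower and 6 higher of the 48 without such an overlap. Named pseudogenes exist for 34 of the 77 genes, 22 of which were lower and 8 higher, and reads shared with these copies are a further uncertainty.

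Promoter windows were searched for motifs of the regulators above and of stress-response factors. RefSeq windows (GRCh38.p14) of 250 bases before and 50 bases after the start were matched for 68 of the 77 genes and for 8973 tested genes, and both strands were searched. The YY1 motif AAGATGGC was found in 20 of the 68 (29.4%), in 5.85% of the tested genes and in 3.03% of 27305 promoters. The ETS motif CCGGAAG, bound by GABP among others, was found in 41.2% of the 68, 20.4% of the tested genes and 10.7% of all promoters. An NRF1 motif, GCGCA and GCGC separated by any 1 base, was found in 11.8% of the 68, 12.1% of the tested genes and 6.28% of all promoters. SP1 motifs (GGGCGG) were in 60.3%, 70.7% and 44.6% of these sets in the same order, and MYC E-boxes (CACGTG) in 8.82%, 10.4% and 7.43%. The CREB motif TGACGTCA was in 0 of the 68 and in 3.29% of the tested genes, and the ATF4 and C/EBP motif TGATGNAA in 1 of the 68 and in 1.58% of the tested genes. A match is only a description of the letters in this window and shows no binding.

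The YY1 motif was found among genes of every call. It was present in 4 of the 13 higher genes with a window (30.8%), 10 of the 40 lower genes (25%) and 6 of the 15 that did not pass (40.0%), and the median log2 fold change was -0.13 with the motif and -0.27 without it. By symbol it was in 29.3% of the MRPL and 29.6% of the MRPS windows. The ETS motif was in 4 of the 13 higher (30.8%), 19 of the 40 lower (47.5%) and 5 of the 15 genes that did not pass (33.3%). Medians were -0.38 with it and -0.23 without it, and a link of motif and direction was not tested. Of 21 YY1 matches in the 20 genes, 17 lay on the strand of the gene and 15 after the annotated start. The motif contains ATG, the letters of a start codon, and whether the matches after the start are translation starts was not tested. The stretches printed here are from genes that moved in opposite directions, with the motif in capitals and 8 bases on each side, each on the strand of its gene. MRPS30 (chr5:44808952-44808975, plus strand) and MRPS10 (chr6:42217837-42217860, minus strand) are from the genes with the largest rises, at 14 and 10 bases after the start. MRPS7 (chr17:75261890-75261913, plus strand), MRPS27 (chr5:72320209-72320232, minus strand), MRPL51 (chr12:6493226-6493249, minus strand) and MRPL52 (chr14:22829815-22829838, plus strand, before the start) are from genes that were lower, with log2 fold changes of -0.69, -0.71, -0.79 and -0.72. The same 8 letters thus stand near the starts of the gene with the largest rise and of genes that fell.
MRPS30: cgcgggcaAAGATGGCggcggcca
MRPS10: ggaccggcAAGATGGCggcgcgga
MRPS7: ggccagccAAGATGGCtgcccccg
MRPS27: tacgctccAAGATGGCtgcctcca
MRPL52: ccagattcAAGATGGCgacttcct
MRPL51: taaggcccAAGATGGCtgtcttcg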

How the data were processed

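Each of the 6 libraries has a table of FPKM values per gene symbol, deposited by the authors. The submitters' processing notes name Cufflinks 2.2.1, Cuffdiff, SAMtools 1.2, TopHat2 2.1.1, Bowtie2 2.3.5.1 and build hg19. Settings, read totals and the use of strand in quantification are not given there. A stranded mRNA kit was used, per the labels' protocols. FPKM values hold no counts, so no count model or counting interval was used.

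Genes with at least 1 FPKM in at least 3 of 6 libraries were tested (12035 of 26255) as log2(FPKM + 1) with limma 3.58.1 in R 4.3.3 (trended eBayes, two-sided, no replicate block), with p-values adjusted by Benjamini-Hochberg over these genes and called under 0.05. The script was checked on simulated data. The log2(FPKM + 1) scale understates changes of scarce transcripts, and a fold is the quotient of group means in FPKM.

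Members are symbols of MRPL or MRPS, a number and an optional letter A to C. The members and lists were chosen with earlier results of these data known. Named in full were the 8 largest rises and falls, the 3 most abundant MRPL, MRPS and unpassed genes, and MRPS18A, MRPS18B, MRPS18C, MRPS36 and MRPL12 for their roles. Of each related list other than the cytosolic ribosomal proteins the 3 genes with the lowest p were named, or all of a list of up to 9. MRPL20, MRPL37, VIL1, CDX2, KRT8, KRT18, the neighbouring genes and those of the printed motif stretches were named after their values were seen. Gene positions, neighbours and pseudogenes are from GENCODE 29 and promoters from RefSeq (both GRCh38), not the files' build. Sites of proteins in the ribosome and origins are textbook assignments. Alternatives were pseudocounts of 0.1 and 0.5, no filter or a mean of at least 5 FPKM, 5 other scalings, eBayes without trend or robust, a replicate block, leaving out each library, a threshold of 0.01, and subunits by structure.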

Additional observations from a re-analysis of the deposited data

How the results depend on the processing

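All 47 lower calls were kept under every other pseudocount, filter, scaling, eBayes setting and the replicate block, 46 at a threshold of 0.01, and 46 or 47 when a library was left out. Scalings that moved the 77 genes down could hardly lose such calls. The 14 higher calls numbered 7 under upper-quartile and common-sum scaling, 6 under quantile normalization and cyclic loess, and 13 to 15 without single libraries. The median log2 fold change of the 77 genes was -0.22 under median-of-ratios, -0.51 under upper-quartile, -0.58 under common-sum and -0.68 under quantile scaling, -0.59 under cyclic loess, and -0.28 to -0.26 without single libraries. These scalings moved the median of all tested genes by 0.03, -0.22, -0.28, -0.11 and -0.05. The MRPL minus MRPS difference of medians was -0.11 under quantile normalization, 0.10 by structure and -0.097 to 0.072 without single libraries. Higher calls in the 6 related lists fell to 18, 15, 16 and 20 under upper-quartile, common-sum, quantile and loess scaling, against 33, and lay at 28 to 32 without single libraries.

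Single genes changed sign as follows, under upper-quartile, common-sum, quantile and loess scaling where 4 values are given. MRPS35 came to -0.21, -0.28, -0.40 and -0.31, MRPS18A to -0.07, -0.14, -0.24 and -0.16, AURKAIP1 to -0.20, -0.27, -0.38 and -0.30, GADD45GIP1 to -0.037, -0.11, -0.23 and -0.13, and ICT1 to -0.22, -0.29, -0.40 and -0.31. DAP3 came to -0.035, -0.16 and -0.065 under common-sum, quantile and loess scaling, and MRPS22 to -0.045 under quantile normalization. Under median-of-ratios MRPL3, MRPS24 and NOA1 came to 0.0022, 0.0074 and 0.036. Without single libraries MRPS24 ranged over -0.072 to 0.0076, NOA1 over -0.014 to 0.015, AURKAIP1 over -0.0048 to 0.095 and ICT1 over -0.023 to 0.11. The cause was not tested.

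Replicate numbers showed no sign of pairing, but the titles do not say if they mark a shared culture or day. So few libraries cannot settle it. Deviations of same-numbered libraries correlated at -0.071, -0.148 and -0.125, and the replicate block left the counts at 14 higher and 47 lower and those of the related lists at 31 and 33. Depth is unknown apart from the relative worth of 1 read.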
